A study of Homo sapiens with 12 samples.

Results

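The recombination-activating genes RAG1 and RAG2, the terminal transferase gene DNTT and the CD1 genes CD1A, CD1B, CD1C, CD1D and CD1E mark immature T cells of the thymic cortex. These 8 genes were taken from 19775 genes on the array, by the rule that a probe set counts when its platform annotation holds a single symbol and that symbol is a member. The rule gave 12 of the 54675 probe sets: 3 for DNTT, 2 each for RAG1 and CD1E, and 1 each for RAG2, CD1A, CD1B, CD1C and CD1D. The groups were KOPT-K1 cells with SAHM1, KOPT-K1 cells with DMSO, HPB-ALL cells with SAHM1 and HPB-ALL cells with DMSO, each with 3 cultures and 1 array per culture. KOPT-K1 and HPB-ALL are established human T-cell acute lymphoblastic leukaemia lines, so each stands for the leukaemia of a single patient. SAHM1 is a stapled peptide built from mastermind-like, a NOTCH co-activator, to keep that co-activator off the NOTCH complex. It was given at 20 µM for 24 hours, and the control cultures received DMSO, its solvent, for the same time.

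In the thymic cortex RAG1 and RAG2 form the recombinase that cuts antigen receptor genes, and DNTT encodes terminal deoxynucleotidyl transferase, which adds untemplated nucleotides where the cut ends are joined. CD1 proteins resemble MHC class I, pair with beta-2 microglobulin and present lipids to T cells, and CD1A on leukaemic blasts is used to define the cortical form of T-cell leukaemia. NOTCH1 signalling drives early T-cell development and is activated in many of these leukaemias, and the question asked of the arrays was what changes when it is blocked.

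The deposited ratios set each array against the average DMSO array of its line and are given here as log2, so 0 is that line's DMSO level. How strongly a gene was expressed, whether it was above background and how the lines differ in DMSO cannot be read on this scale, and the label of cortical thymocyte genes could therefore not be checked against levels in these cells. A change is the mean of the SAHM1 arrays minus that of the DMSO arrays with limma's standard error (n = 3 arrays per group). A gene or probe set was called changed at a Benjamini-Hochberg adjusted p under 0.05 over all genes or all probe sets. The median standard error was 0.085 for a gene and 0.11 for a probe set, and the number of arrays limits this precision. In bulk RNA, fewer cells of a kind and less RNA per cell cannot be told apart.

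In KOPT-K1, 5 of the 8 genes fell (RAG1, RAG2, CD1A, CD1B and CD1E) and DNTT rose, where 13.2% of all genes fell and 5.85% rose (19% called). In HPB-ALL, RAG2 and DNTT rose, where 4.96% of all genes rose and 4.38% fell (9.34% called). None of the 8 fell there by limma, although 4 of the 8 genes had an unadjusted p under 0.05, 3 of them higher and CD1D lower. Over all 19775 genes, 4345 in HPB-ALL and 6509 in KOPT-K1 had an unadjusted p under 0.05. The median change of the 8 genes was -0.39 in KOPT-K1 and 0.078 in HPB-ALL, against 0.00 and -0.021 over all genes. The SAHM1 arrays of KOPT-K1 lay wholly below the DMSO arrays for 6 genes and wholly above them for 1, against 21.6% and 13.5% of all genes. In HPB-ALL the counts were 1 and 3 genes, against 15.7% and 13.4% of all genes.

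Of the 12 probe sets, 6 fell and 0 rose in KOPT-K1 by limma (8 had an unadjusted p under 0.05), where 9.79% of all probe sets fell and 4.77% rose (14.6% called). In HPB-ALL 4 rose and 0 fell (6 had an unadjusted p under 0.05), where 3.09% of all probe sets rose and 2.06% fell (5.15% called).

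**Figure D1:**
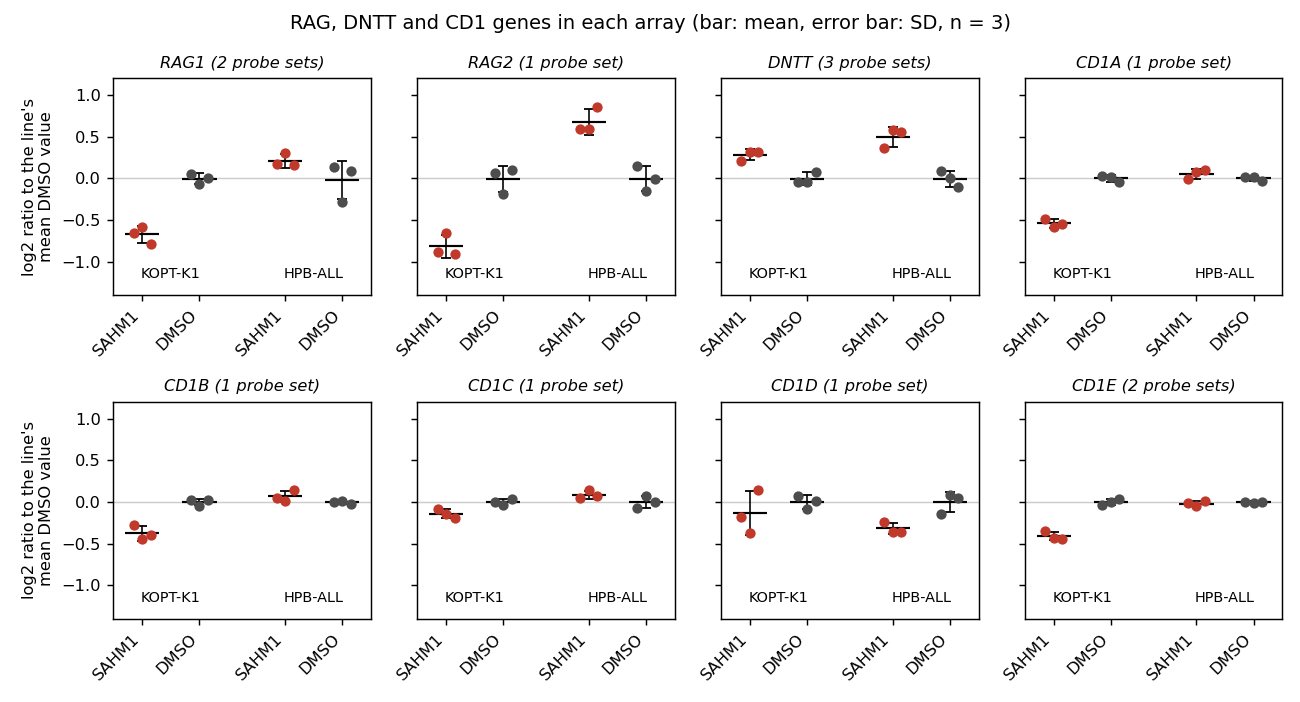
Log2 ratio to the line's mean DMSO value (y axis) of each of the 8 genes in every array, with the mean and SD of each group of 3 (probe sets of a gene averaged). RAG2 lies below the DMSO arrays in KOPT-K1 and above them in HPB-ALL, CD1A, CD1B and CD1E lie low only in the SAHM1 arrays of KOPT-K1, and DNTT lies high with SAHM1 in both lines.

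RAG1 and RAG2 are neighbours on chromosome 11, with no other gene between them in RefSeq GRCh38.p14. Their promoter windows, from 250 bases before to 50 after the annotated start, are shown because RAG2 and RAG1 probe set 206591_at fell in KOPT-K1 and rose in HPB-ALL. Read 5′ to 3′ on the gene's strand and credited to RefSeq (GRCh38.p14), with each match to CANNTG in capitals, they are:
RAG1 (chr11:36510103-36510402, plus strand): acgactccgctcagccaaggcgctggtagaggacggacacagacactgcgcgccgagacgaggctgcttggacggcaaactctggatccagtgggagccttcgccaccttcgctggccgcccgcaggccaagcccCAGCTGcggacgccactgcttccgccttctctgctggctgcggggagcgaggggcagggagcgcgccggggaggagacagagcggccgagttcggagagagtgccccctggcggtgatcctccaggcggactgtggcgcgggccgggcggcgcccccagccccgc
RAG2 (chr11:36598187-36598486, minus strand): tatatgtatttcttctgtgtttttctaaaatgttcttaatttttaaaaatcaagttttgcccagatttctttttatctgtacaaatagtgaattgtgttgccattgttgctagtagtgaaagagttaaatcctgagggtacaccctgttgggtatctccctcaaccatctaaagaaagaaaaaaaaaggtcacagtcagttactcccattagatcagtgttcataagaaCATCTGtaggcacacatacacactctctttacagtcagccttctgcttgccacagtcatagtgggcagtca
CANNTG is the E-box, a site bound by E proteins such as TCF3 and TCF12. Each window held 1 match, and 68.7% of 35116 promoter windows of the same length held at least 1. GTGGGAA, the site of the NOTCH partner RBPJ, was searched on both strands and was in neither window, and 6.25% of all windows hold it. Its core TGGGAA, which lies inside GTGGGAA, was also in neither, against 24% of all windows. No other bases of these genes were searched, and which start these cells use was not measured.

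RAG2, the partner that lets RAG1 cut and reads histone marks, fell in KOPT-K1 and rose in HPB-ALL. In KOPT-K1 it stood at -0.89, -0.65 and -0.91 in the SAHM1 arrays, against 0.064, -0.19 and 0.11 in the DMSO arrays. In HPB-ALL it stood at 0.59, 0.59 and 0.86 in the SAHM1 arrays, against 0.15, -0.15 and -0.012 in the DMSO arrays. The groups did not overlap in either line. The change was -0.81 ± 0.11 in KOPT-K1, a 1.76-fold fall (adjusted p = 0.000469), and 0.69 ± 0.11 in HPB-ALL, a 1.61-fold rise (adjusted p = 0.00238). The response in HPB-ALL exceeded that in KOPT-K1 by 1.50 ± 0.16 (adjusted p = 9.84e-05).

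RAG1, the subunit with the DNA-cutting site, was measured by probe sets that did not move alike. Probe set 206591_at stood at -1.27, -1.37 and -1.62 in the SAHM1 arrays of KOPT-K1, against 0.18, -0.10 and -0.10 in the DMSO arrays. It fell 2.66-fold (-1.41 ± 0.11, adjusted p = 6.78e-06), the largest change of the 12 probe sets in either line. In HPB-ALL the same probe set stood at 0.52, 0.40 and 0.35 with SAHM1, against -0.025, -0.047 and 0.069 with DMSO, and it rose 1.34-fold (0.42 ± 0.11, adjusted p = 0.0394). These groups did not overlap in either line, and the signs matched those of RAG2. Probe set 1554994_at stood at -0.049, 0.21 and 0.050 with SAHM1 in KOPT-K1, against -0.069, -0.041 and 0.10 with DMSO (0.072 ± 0.17, adjusted p = 0.829). In HPB-ALL it stood at -0.18, 0.20 and -0.036 with SAHM1, against 0.29, -0.52 and 0.11 with DMSO (0.035 ± 0.17, adjusted p = 0.957). Its groups overlapped in both lines, and its DMSO arrays in HPB-ALL were spread more widely than those of any other of the 12 probe sets. As the mean of both probe sets, RAG1 fell by 0.67 ± 0.10 in KOPT-K1 (adjusted p = 0.000933). In HPB-ALL that mean was at 0.23 ± 0.10 (adjusted p = 0.202), with an unadjusted 95% interval from 0.011 to 0.45.

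**Figure D2:**
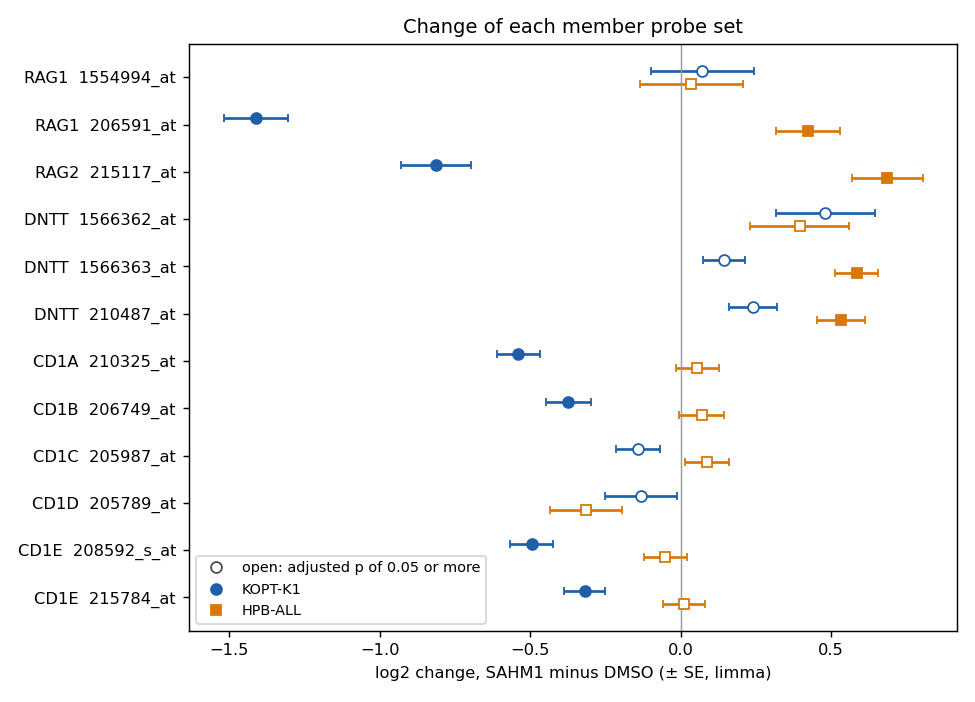
Log2 change (SAHM1 minus DMSO, ± SE) of the 12 probe sets in KOPT-K1 (circles) and HPB-ALL (squares), filled where called. The RAG1 probe sets stand far apart in KOPT-K1 (0.072 and -1.41), the 3 DNTT probe sets are all above 0 in both lines, and both CD1E probe sets are filled in KOPT-K1 only.

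DNTT, on chromosome 10, rose in both lines. Its promoter window is shown because DNTT was the only gene of the 8 called higher in KOPT-K1. CANNTG is again in capitals:
DNTT (chr10:96304184-96304483, plus strand): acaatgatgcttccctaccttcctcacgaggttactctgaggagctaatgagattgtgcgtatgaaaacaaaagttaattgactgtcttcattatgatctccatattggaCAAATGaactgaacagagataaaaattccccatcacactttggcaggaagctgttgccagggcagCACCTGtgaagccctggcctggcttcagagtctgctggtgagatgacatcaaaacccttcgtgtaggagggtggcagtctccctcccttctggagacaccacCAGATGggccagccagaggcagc
The window held 3 matches to CANNTG and none to TGGGAA. A match is a description of the letters and shows no binding.

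As the mean of 3 probe sets, DNTT stood at 0.36, 0.58 and 0.55 in the SAHM1 arrays of HPB-ALL, against 0.087, 0.0025 and -0.11 in the DMSO arrays. In KOPT-K1 it stood at 0.21, 0.32 and 0.32 in the SAHM1 arrays, against -0.050, -0.043 and 0.082 in the DMSO arrays. For this mean, no SAHM1 array overlapped the DMSO arrays of its line. Probe set 1566362_at did overlap in both lines. Its lowest SAHM1 and highest DMSO values were 0.234 and 0.237 in KOPT-K1, and 0.063 and 0.13 in HPB-ALL. The rise of the mean was 1.42-fold in HPB-ALL (0.50 ± 0.077, adjusted p = 0.00175) and 1.22-fold in KOPT-K1 (0.29 ± 0.077, adjusted p = 0.0210). Probe sets 1566363_at and 210487_at were called in HPB-ALL (0.58 ± 0.070 and 0.53 ± 0.080), and 1566362_at was not (0.40 ± 0.16, adjusted p = 0.222). None of the 3 was called alone in KOPT-K1 by limma, where their changes ran from 0.14 to 0.48 and adjusted p from 0.0608 to 0.200. The KOPT-K1 call was lost when DMSO replicate 1 (adjusted p = 0.0716), DMSO replicate 2 (0.0710), SAHM1 replicate 2 (0.0642) or SAHM1 replicate 3 (0.0575) of that line was left out, with changes of 0.27 in each case. Over the 20 alternative settings its adjusted p in KOPT-K1 ran from 0.0158 to 0.453. The responses of the lines differed by 0.22 ± 0.11 (adjusted p = 0.203, unadjusted 95% interval -0.021 to 0.45), so no difference between the lines was called for DNTT, and 1566363_at alone did differ (0.44 ± 0.099, adjusted p = 0.0136).

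The CD1 genes lie together on chromosome 1 in the RefSeq order CD1D, CD1A, CD1B, CD1C and CD1E, with a pseudogene on either side of CD1A and no other gene inside the cluster. The windows of CD1A and CD1E are shown because both genes fell in KOPT-K1, with CANNTG in capitals:
CD1A (chr1:158248086-158248385, plus strand): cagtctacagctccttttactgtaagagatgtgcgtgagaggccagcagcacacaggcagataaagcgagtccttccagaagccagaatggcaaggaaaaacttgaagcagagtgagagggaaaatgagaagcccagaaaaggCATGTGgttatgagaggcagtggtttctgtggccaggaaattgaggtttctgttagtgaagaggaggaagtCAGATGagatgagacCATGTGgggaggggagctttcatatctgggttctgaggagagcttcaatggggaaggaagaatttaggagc
CD1E (chr1:158353644-158353943, plus strand): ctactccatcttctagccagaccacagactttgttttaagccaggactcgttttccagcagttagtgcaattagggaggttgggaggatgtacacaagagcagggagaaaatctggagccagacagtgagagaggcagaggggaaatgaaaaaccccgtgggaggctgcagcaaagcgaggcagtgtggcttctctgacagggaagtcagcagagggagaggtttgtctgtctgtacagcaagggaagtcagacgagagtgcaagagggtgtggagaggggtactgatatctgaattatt
The CD1A window held 3 matches to CANNTG and the CD1E window none. A further annotated start of CD1A also has a window in the table, not printed here, and it held 1 match to CANNTG and the only TGGGAA among the 9 windows, which cover 7 of the 8 genes (all but CD1B). GTGGGAA was in 0 of those 9 windows. TGTGGT, read by RUNX factors, was in 2 of them (the CD1A and CD1E windows shown), against 13.1% of all windows. AGATAA, a motif of the family that includes GATA3, was in 4 of them, against 10.3% of all windows. Both strands were searched for each. Which start of CD1A these cells use was not measured.

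CD1A, the group 1 member that defines cortical thymocytes, fell in KOPT-K1 and was not called in HPB-ALL. In KOPT-K1 it stood at -0.48, -0.58 and -0.55 in the SAHM1 arrays, against 0.026, 0.019 and -0.047 in the DMSO arrays. The fall was 1.45-fold (-0.54 ± 0.057, adjusted p = 8.63e-05). In HPB-ALL it stood at -0.0088, 0.072 and 0.10 with SAHM1, against 0.016, 0.015 and -0.031 with DMSO, and these groups overlapped (0.056 ± 0.057, adjusted p = 0.648, 95% interval -0.068 to 0.18). CD1A kept its call in KOPT-K1 under all 20 alternative settings, with changes from -0.57 to -0.33 and adjusted p from 8.86e-05 to 0.0408.

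CD1E, whose protein stays inside the cell and helps load lipids onto the others, fell by both of its probe sets in KOPT-K1. Probe set 208592_s_at stood at -0.41, -0.52 and -0.56 with SAHM1, against -0.0080, -0.017 and 0.025 with DMSO. Probe set 215784_at stood at -0.29, -0.35 and -0.32 with SAHM1, against -0.058, 0.019 and 0.037 with DMSO. The falls were 1.41-fold (-0.50 ± 0.071, adjusted p = 0.000831) and 1.25-fold (-0.32 ± 0.069, adjusted p = 0.00912). In HPB-ALL they were at -0.051 ± 0.071 and 0.012 ± 0.069, and neither was called (adjusted p = 0.803 and 0.963).

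CD1B, which presents mycobacterial lipids, stood at -0.27, -0.45 and -0.40 with SAHM1 in KOPT-K1, against 0.025, -0.047 and 0.021 with DMSO. It fell 1.30-fold (-0.37 ± 0.062, adjusted p = 0.00169). In HPB-ALL it stood at 0.054, 0.013 and 0.14 with SAHM1, against 0.0029, 0.017 and -0.020 with DMSO, which overlap (0.070 ± 0.062, adjusted p = 0.590).

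CD1C, the third lipid-presenting member of group 1, stood at -0.087, -0.14 and -0.19 with SAHM1 in KOPT-K1, against -0.0021, -0.039 and 0.040 with DMSO. The groups did not overlap, but the change of -0.14 ± 0.060 was not called (adjusted p = 0.122, unadjusted 95% interval -0.27 to -0.011). In HPB-ALL the change was 0.087 ± 0.060 (adjusted p = 0.458). CD1D, which presents lipids to natural killer T cells and alone forms group 2, stood at -0.18, -0.38 and 0.15 with SAHM1 in KOPT-K1, against 0.075, -0.088 and 0.0084 with DMSO. Its SAHM1 arrays there were the most scattered of any of the 8 genes, and the change was -0.13 ± 0.11 (adjusted p = 0.447). In HPB-ALL it stood at -0.24, -0.36 and -0.36 with SAHM1, against -0.14, 0.082 and 0.048 with DMSO. These groups did not overlap, and the change of -0.31 ± 0.11 was not called (adjusted p = 0.109, unadjusted 95% interval -0.56 to -0.071). It passed when only the 6 HPB-ALL arrays were fitted (adjusted p = 0.0447) and when KOPT-K1 SAHM1 replicate 3 was left out (adjusted p = 0.0328).

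In order of the change in KOPT-K1 the CD1 genes ran CD1A, CD1E, CD1B, CD1C and CD1D. With the CD1E probe sets averaged, the SAHM1 values of CD1A lay below those of CD1E and CD1B in every array. CD1E probe set 208592_s_at alone overlapped CD1A, at -0.56 against -0.55 in replicate 3. The averaged CD1E values and those of CD1B overlapped, and those of CD1D overlapped those of CD1E, CD1B and CD1C but not those of CD1A. Different probe sets can respond unequally to the same change in RNA, so this order is a description of the probe sets.

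The response of the lines differed for 5 of the 8 genes, all with the HPB-ALL response above the KOPT-K1 response, where 11.4% of all genes differed in that direction and 5.41% in the other (16.8% called). Of the 12 probe sets 7 differed, all in that direction, against 8.5% of all probe sets in that direction and 3.22% in the other (11.7% called). They were RAG2, RAG1 (0.90 ± 0.14, adjusted p = 0.00149), CD1A (0.60 ± 0.081, adjusted p = 0.000650), CD1B (0.44 ± 0.088, adjusted p = 0.00525) and CD1E (0.39 ± 0.076, adjusted p = 0.00475). RAG2 was the only one of these called in opposite directions as a gene, and RAG1 was so by probe set 206591_at (difference 1.83 ± 0.15, adjusted p = 2.21e-05). CD1C (0.23 ± 0.085, adjusted p = 0.0869) and CD1D (-0.18 ± 0.16, adjusted p = 0.477) were not called. These calls depended on the processing. When each array's level of 18S ribosomal RNA was added to the fit, the differences of RAG2 (1.34 ± 0.23, adjusted p = 0.0151) and CD1A (0.59 ± 0.12, adjusted p = 0.0370) were called, and those of RAG1, CD1B and CD1E were not (adjusted p from 0.0983 to 0.105). After quantile normalization RAG2 was the only one called (0.98 ± 0.19, adjusted p = 0.0313). With the level of the hybridization spikes added as well, none of the 8 was called by limma (RAG2 at 1.12 ± 0.25, adjusted p = 0.134), and 6 had an unadjusted p under 0.05. Over all 19775 genes, 68 were called in that fit and 2260 had an unadjusted p under 0.05. For comparison, the NOTCH targets HES1 (-0.69 and -0.59), HES4 (-1.24 and -1.24), DTX1 (-0.86 and -1.30) and MYC (-0.69 and -0.65) fell in KOPT-K1 and in HPB-ALL.

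**Figure D3:**
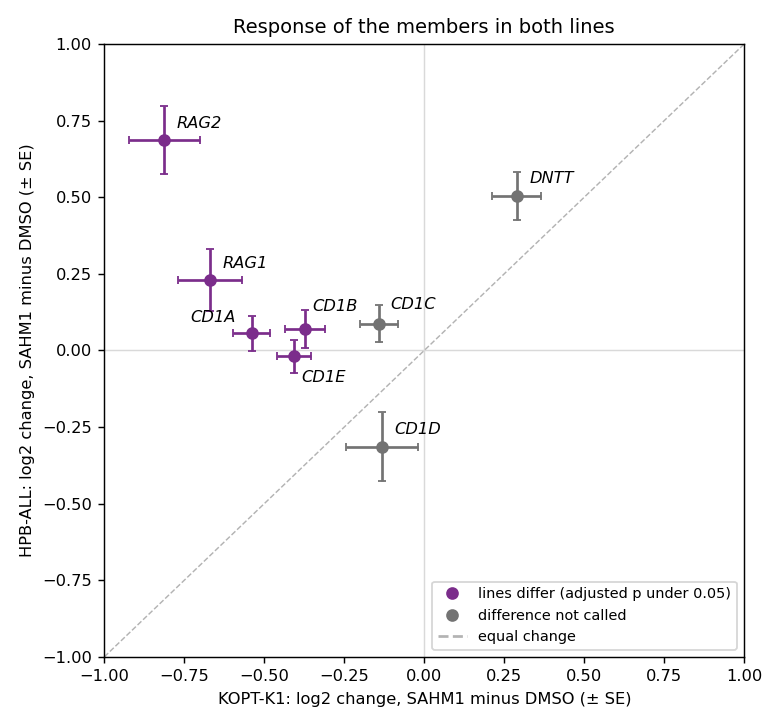
Log2 change with SAHM1 in KOPT-K1 (x axis) against HPB-ALL (y axis) for the 8 genes, with standard errors. The 5 genes in purple differed between lines, RAG2 stands farthest from the dashed line of equal change (-0.81 and 0.69), and DNTT is the gene above 0 on both axes.

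Control probe sets of the arrays also moved with treatment. The 3 probe sets for 18S ribosomal RNA averaged 1.66 ± 0.28 in the SAHM1 arrays of HPB-ALL and -0.54 ± 1.41 in its DMSO arrays (SD, n = 3 each), and -0.27 ± 0.13 and -0.0072 ± 0.15 in KOPT-K1. The 18 hybridization spike probe sets averaged 0.83 ± 0.22 with SAHM1 and -0.00047 ± 0.015 with DMSO in KOPT-K1, and -0.50 ± 0.20 and -0.11 ± 0.62 in HPB-ALL. The 5′ minus 3′ difference of the ACTB probe sets, a sign of RNA integrity, was -0.17 ± 0.069 with SAHM1 and 8.3e-05 ± 0.0098 with DMSO in KOPT-K1, and -0.24 ± 0.16 and 0.0018 ± 0.042 in HPB-ALL.

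Of the DMSO arrays of HPB-ALL, replicate 1 had the highest 18S level (1.05, against -1.01 in replicate 2 and -1.65 in replicate 3). It was also the highest for RAG2 and CD1A and the lowest for CD1C and CD1D. For CD1B and CD1E it lay between the other replicates. Replicate 3 had the lowest 18S level, but RAG2 was lowest in replicate 2 (-0.15, against -0.012 in replicate 3). Replicate 1 was also the highest of the 3 for the RAG1 and DNTT averages, but not for each of their probe sets. RAG1 206591_at was highest in replicate 3 (0.069, against -0.025 in replicate 1), and DNTT 1566362_at in replicate 2 (0.13, against 0.11 in replicate 1). The 18S level of the SAHM1 arrays of HPB-ALL lay wholly above that of its DMSO arrays (1.35 to 1.89 against -1.65 to 1.05). The spike level did so in KOPT-K1 (0.60 to 1.05 against -0.018 to 0.0086). There the covariate moves with the treatment, so the fits that follow cannot fully tell them apart. The part of the 18S and spike levels in the results was not tested beyond these fits. With the 18S level as a covariate RAG2 was at 0.55 ± 0.18 and DNTT at 0.36 ± 0.12 in HPB-ALL, and neither was called (adjusted p = 0.368 and 0.380). In KOPT-K1 the same covariate left all 6 calls in place. With the spike level added, CD1A (-0.52 ± 0.087) and CD1E (-0.38 ± 0.080) were still called in KOPT-K1, while RAG1 (-0.41 ± 0.11, adjusted p = 0.0705), RAG2 (-0.62 ± 0.15, adjusted p = 0.0574), CD1B (-0.34 ± 0.095, adjusted p = 0.0816) and DNTT (0.29 ± 0.11, adjusted p = 0.190) were not. Quantile normalization left CD1A as the only gene of the 8 called in KOPT-K1 (-0.33 ± 0.062), with RAG1 at -0.39, RAG2 at -0.48, CD1B at -0.23, CD1E at -0.25 and DNTT at 0.20. That step gives every array the same spread. On this ratio scale the DMSO arrays are set against their own mean. The SD over all probe sets was 0.228 to 0.319 in SAHM1 arrays and 0.119 to 0.148 in DMSO arrays. The step therefore draws the SAHM1 values in and spreads the DMSO values out, so smaller changes after it are in part built in.

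**Figure D4:**
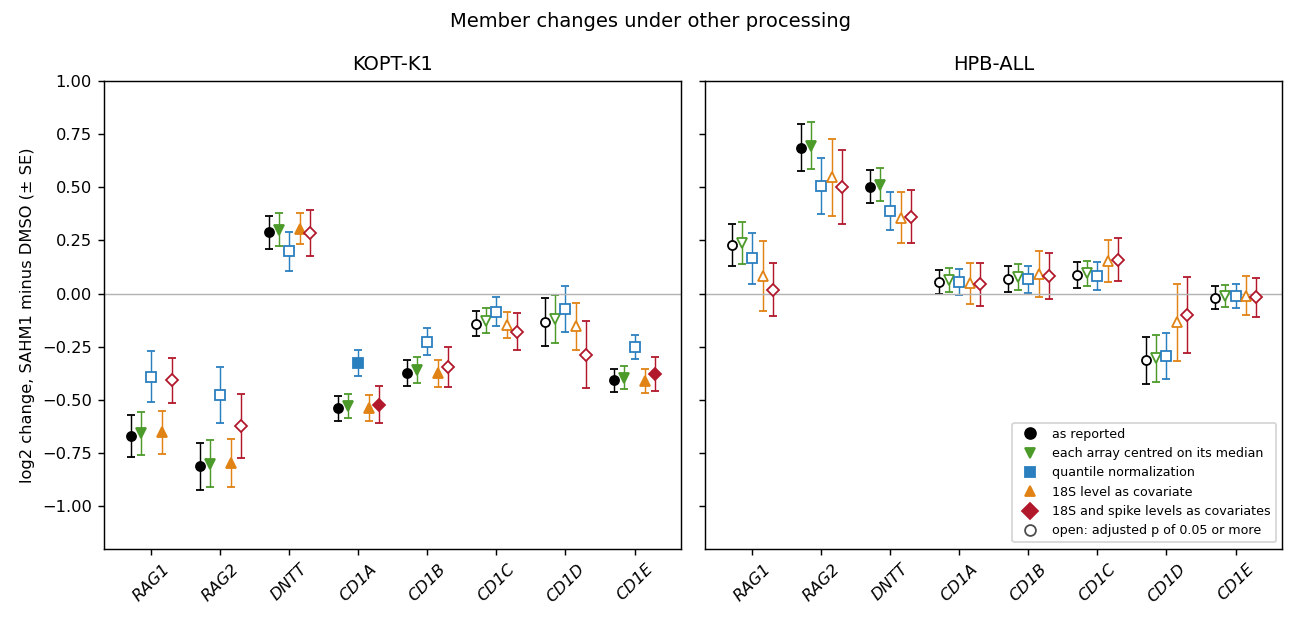
Log2 change (± SE) of each gene in KOPT-K1 (left) and HPB-ALL (right) as reported, after centring, after quantile normalization and with the 18S level or the 18S and spike levels as covariates, filled where called. Signs hold for every gene shown in these settings, and CD1A in KOPT-K1 is the only one of the 8 filled in all 5.

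Of 14 measured genes of the antigen receptor recombination machinery outside RAG and DNTT, 5 fell and 1 rose in KOPT-K1, where 13.2% of all genes fell and 5.85% rose, and the median was -0.075. XRCC5, which encodes the Ku80 end-binding subunit, fell by 0.34 ± 0.058 (2 of 3 probe sets called), and XRCC4, the ligase partner, by 0.27 ± 0.069 (0 of 4 called alone by limma, each below 0). H2AX, the histone marked at breaks, rose by 0.25 ± 0.067, with 0 of 4 probe sets called alone and changes from 0.028 to 0.41. In HPB-ALL 1 rose and 1 fell, where 4.96% of all genes rose and 4.38% fell. DCLRE1C, the Artemis nuclease that opens the hairpins RAG leaves, rose by 0.34 ± 0.071 (1 of 5 probe sets called), and XRCC5 fell by 0.21 ± 0.058, with probe sets from -0.36 to 0.068. PRKDC, the DNA-dependent kinase, was at -0.19 ± 0.057 (adjusted p = 0.0593). In KOPT-K1 PRKDC fell by 0.19 ± 0.057 and DCLRE1C by 0.23 ± 0.071 (limma adjusted p = 0.0352 and 0.0420). The DCLRE1C response in HPB-ALL exceeded that in KOPT-K1 by 0.56 ± 0.10 (adjusted p = 0.00283).

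Of 17 measured transcription factors of developing T cells, 8 fell and 0 rose in KOPT-K1 by limma (10 had an unadjusted p under 0.05), where 13.2% of all genes fell and 5.85% rose, and the median was -0.23. Over all 19775 genes, 6509 had an unadjusted p under 0.05 in KOPT-K1. MYB, a factor of blood progenitors, fell by 0.66 ± 0.071 with both probe sets called. LEF1, a WNT pathway factor of thymocytes, fell by 0.51 ± 0.085 (2 of 3 called), and IKZF1, the lymphoid factor Ikaros, by 0.35 ± 0.057 (5 of 9 called, from -0.87 to 0.093). In HPB-ALL 4 rose and 1 fell, where 4.96% of all genes rose and 4.38% fell, and the median was 0.054. ID2, an inhibitor of E proteins, rose by 0.62 ± 0.096, and its relative ID3 fell by 0.45 ± 0.075. GFI1, a repressor used in thymocytes, rose by 0.38 ± 0.081. In KOPT-K1 ID2 fell by 0.48 ± 0.096 (limma adjusted p = 0.00455), while ID3 (-0.012 ± 0.075) and GFI1 (-0.10 ± 0.081) were not called. The response differed between lines for 11 of the 17, where 16.8% of all genes differed, and for 10 of them the HPB-ALL response was the higher, with ID2 at a difference of 1.10 ± 0.14. No test was made of the list as a whole.

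Genes that assemble, sort and load CD1 molecules had 3 of 17 lower and 1 higher in KOPT-K1, with a median of -0.069. These shares are near those of all genes (13.2% lower and 5.85% higher). The AP-3 adaptor subunits AP3D1 (-0.58 ± 0.13, 3 of 3 probe sets called) and AP3B1 (-0.32 ± 0.077, 1 of 2 called), which sort CD1B to lysosomes, fell. CD74, the invariant chain, rose by 0.26 ± 0.066, with 0 of 3 probe sets called alone by limma and changes from 0.19 to 0.29. In HPB-ALL 1 rose and 1 fell, where 4.96% of all genes rose and 4.38% fell. There B2M, the light chain of CD1, rose by 0.34 ± 0.087 on 1 of 3 probe sets, which ran from -0.0066 to 1.02, and PSAP, the precursor of lipid-loading saposins, fell by 0.34 ± 0.069 on 1 of 2. AP3D1 was at 0.33 ± 0.13 there (adjusted p = 0.129).

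Among 12 other thymocyte surface markers, 1 fell and 0 rose in KOPT-K1 by limma (3 had an unadjusted p under 0.05), where 13.2% of all genes fell and 5.85% rose. An unadjusted p under 0.05 was found for 6509 of all 19775 genes in KOPT-K1 and for 4345 in HPB-ALL. In HPB-ALL 2 rose and 1 fell, where 4.96% of all genes rose and 4.38% fell. CD38, an ectoenzyme of cortical thymocytes, fell by 0.56 ± 0.065 in KOPT-K1 and rose by 0.37 ± 0.065 in HPB-ALL, and the responses differed by 0.93 ± 0.092 (adjusted p = 6.66e-05). CD3G, a chain of the T-cell receptor complex, rose by 0.71 ± 0.18 in HPB-ALL, and its KOPT-K1 change of -0.50 ± 0.18 was not called (adjusted p = 0.0800). CD7, an early T-lineage glycoprotein, fell by 0.51 ± 0.11 in HPB-ALL (1 of 2 probe sets called), and its KOPT-K1 change of -0.26 ± 0.11 was not called (adjusted p = 0.131). The coreceptor genes CD4, CD8A and CD8B and the pre-T-cell receptor gene PTCRA, named here after their values were seen, were between -0.13 and 0.12 in KOPT-K1 and between -0.081 and 0.18 in HPB-ALL, and none was called (lowest adjusted p = 0.0976, CD8A in HPB-ALL, where 4 of the 12 markers had an unadjusted p under 0.05).

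RAG1, RAG2, DNTT and CD1 genes are also used by B-cell progenitors or dendritic cells. Of 6 measured B-lineage markers, MS4A1, which encodes CD20, rose in KOPT-K1 (0.32 ± 0.067, 2 of 4 probe sets called) and BLNK, a B-cell adaptor, rose in HPB-ALL (0.59 ± 0.13). Of all genes, 5.85% rose in KOPT-K1 and 4.96% in HPB-ALL (19% and 9.34% called in either direction). The medians of the 6 markers were 0.077 in KOPT-K1 and -0.026 in HPB-ALL. BLNK (0.34 ± 0.13, adjusted p = 0.0804) and PAX5 (0.16 ± 0.077, adjusted p = 0.168) in KOPT-K1, and PAX5 (-0.071 ± 0.077) and CD79A (-0.13 ± 0.15) in HPB-ALL, were not called. Of 8 measured myeloid and dendritic markers 0 were called by limma in either line, and 2 in KOPT-K1 and 0 in HPB-ALL had an unadjusted p under 0.05. Over all 19775 genes, 6509 in KOPT-K1 and 4345 in HPB-ALL had such a p. The changes of these 8 markers ran from 0.012 to 0.39 in KOPT-K1, with CLEC10A at 0.39 ± 0.13 and CD207 at 0.28 ± 0.11, and from -0.16 to 0.0016 in HPB-ALL, with CD14 at -0.13 ± 0.078, CLEC4C at -0.12 ± 0.080 and CSF1R at -0.16 ± 0.12. ITGAX was at 0.15 ± 0.12 in KOPT-K1. All arrays were of cultures of the T-cell leukaemia lines KOPT-K1 and HPB-ALL. The part of other cell types in the results was not tested, and ratios give no level for their markers.

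Genes with the most similar values over the 12 arrays were found by the root mean square difference of log2 values, for each of the 6 called genes. For CD1E it was 0.037 to DIDO1 and 0.043 to PAWR, for CD1A 0.040 to MED8 and 0.046 to LARP4B, and for CD1B 0.043 to ARFGEF1 and 0.046 to ERN1. For DNTT it was 0.079 to BIRC5 and 0.086 to TTK, for RAG1 0.085 to TRMT1L and 0.088 to TNKS2, and for RAG2 0.12 to SNHG33 and 0.13 to TMEM267. Among these 6 genes, CD1B and CD1E were the closest pair at 0.0585, the nearest member to RAG2 was RAG1 at 0.27, and the nearest to RAG1 was CD1A at 0.16. The nearest member to DNTT was CD1C at 0.31, against 0.30 for the distance of DNTT from 0. BIRC5 and TTK changed by 0.18 and 0.20 in KOPT-K1 and by 0.45 and 0.48 in HPB-ALL. They were picked for their likeness to DNTT, so these matching changes follow from the choice.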

How the data were processed

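RNA of 12 cultures was measured on Affymetrix human U133 Plus 2.0 arrays. Per the submitters' processing notes, RMA was used (version and annotation: not given in the sources used here). As deposited, each value is a linear ratio: the 3 DMSO values of a line averaged 1, within 1e-06, for 54675 of 54675 probe sets. They ran from 0.0827 to 6.98. No pair of arrays was identical, and 0 sample columns were unused.

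The deposited ratios were turned into log2 with no pseudocount. No filter on low values was possible without levels. Probe sets with 1 symbol (41097) were averaged per gene, 1801 with several were not used for names, and 11777 were unlisted. limma 3.58.1 in R 4.3.3 (lmFit, eBayes, two-sided) was fitted to all 12 arrays and 4 groups (8 residual and 12.6 total degrees of freedom), once over 19775 genes and once over 54675 probe sets, and tested on simulated data. No batch is named in the labels. P-values measure the spread between cultures of the same experiment.

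Named were all 8 genes, up to 3 genes per list and line with the smallest p, the 2 genes nearest to each called gene, and HES1, HES4, DTX1 and MYC. The members and lists were chosen with earlier results of these data known. Alternatives were a replicate block, quantile normalization, centring, dropping _x_at and _s_at probe sets, medians over probe sets, separate fits, 18S and spike covariates, and leaving out each array. Same-numbered SAHM1 and DMSO arrays did not deviate together (r from -0.055 to 0.068 over genes), so the numbers were not taken to pair them.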

Additional observations from a re-analysis of the deposited data

Results flagged for a closer look

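The test of the difference between lines singled out 5 of the 8 genes. The response in HPB-ALL exceeded that in KOPT-K1 by 1.50 ± 0.16 for RAG2, 0.90 ± 0.14 for RAG1, 0.60 ± 0.081 for CD1A, 0.44 ± 0.088 for CD1B and 0.39 ± 0.076 for CD1E (log2 ± SE, limma adjusted p from 9.84e-05 to 0.00525). After quantile normalization only RAG2 was called (0.98 ± 0.19, adjusted p = 0.0313), and with the 18S and spike levels as covariates none was (RAG2 at 1.12 ± 0.25, adjusted p = 0.134). The groups of 3 arrays are too small for a test of single arrays that stand apart.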

How the results depend on the processing

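The changes of the 8 genes were recomputed 472 times over 20 alternative settings: 434 values kept their sign and side of the threshold, 32 lost the call, 3 gained it and 3 changed sign. The sign changes were in values never called, CD1E in HPB-ALL without _x_at and _s_at probe sets (0.012) and the CD1D difference between lines with the 18S level (0.019) or 18S and spike levels (0.19) as covariates. Counts below are in the order KOPT-K1, HPB-ALL and difference between lines where 3 are given. Reported were 6, 2 and 5 of 8 genes, 6, 4 and 7 of 12 probe sets, 3761, 1846 and 3323 of all genes, and 7962, 2816 and 6407 of all probe sets. Quantile normalization gave 1, 0 and 1 genes of the 8 (unadjusted p under 0.05 in 6, 3 and 5), 1, 1 and 1 of the 12 probe sets, 136, 417 and 211 of all genes and 203, 298 and 118 of all probe sets. It split the calls over all genes into 25 higher and 111 lower in KOPT-K1 (1156 and 2605 as reported) and 138 and 279 in HPB-ALL (980 and 866), and those over all probe sets in HPB-ALL into 80 and 218 (1692 and 1124). With the 18S level, HPB-ALL and the difference gave 0 and 2 of the 8 genes (unadjusted p under 0.05 in 2 and 6), 0 and 2 of the 12 probe sets (4 and 7), 52 and 324 of all genes and 19 and 338 of all probe sets. The unadjusted p was then under 0.05 for 1623 and 3253 of all genes. With 18S and spike levels the counts were 2, 0 and 0 of the 8 genes (unadjusted p under 0.05 in 6, 2 and 6), 2, 0 and 1 of the 12 probe sets (8, 4 and 6), 597, 39 and 68 of all genes and 747, 13 and 82 of all probe sets. The unadjusted p was then under 0.05 for 3793, 1642 and 2260 of all genes. Without _x_at and _s_at probe sets, which leaves fewer to test, 2498 and 1019 of all genes were called in KOPT-K1 and HPB-ALL, and 4592, 1407 and 3814 of all probe sets. Separate fits per line, with fewer arrays, gave 4742 and 1732 of all probe sets. The replicate block gave 1738 of all probe sets in HPB-ALL, 5, 2 and 5 of the 8 genes and 6, 4 and 6 of the 12 probe sets, and of the 8 genes it ended only the DNTT call in KOPT-K1 (adjusted p = 0.0506). Leaving out single arrays gave 5 to 6, 2 to 3 and 5 to 5 of the 8 genes, 6 to 7, 3 to 4 and 5 to 6 of the 12 probe sets, 2528 to 3885, 913 to 2012 and 2341 to 3369 of all genes, and 4917 to 8153, 836 to 3466 and 4160 to 6600 of all probe sets. The all-gene count in HPB-ALL moved most without DMSO replicate 2 (915) or 3 (996) or SAHM1 replicate 1 (1124), 2 (913) or 3 (1117). Its count over all probe sets was 902 or 1058 without DMSO replicate 2 or 3 and 1134, 836 or 1246 without SAHM1 replicate 1, 2 or 3. In KOPT-K1 it was 4917 or 5124 without DMSO replicate 1 or 2 of that line, and for the difference 4160 or 4231 without HPB-ALL DMSO replicate 2 or SAHM1 replicate 2. Beyond what is said of fewer arrays or probe sets and of equal spread, the cause was not tested. Ratios give no signal over background, so a gene near background could not be told from a steady one.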
